A study of Homo sapiens with 16 samples.

Results

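The BCL2 family, the caspases and the death receptors are the machinery of apoptosis, and 37 genes of this machinery were followed here. They were selected by gene symbol from the gene FPKM table (FPKM, fragments scaled to transcript length and library size) and joined by Ensembl identifier to the read counts of 63677 genes, and all 37 were found in both tables. They comprise 5 anti-apoptotic BCL2 proteins, 3 effectors, 8 BH3-only proteins, 6 caspases, 4 components or partners of the apoptosome, 2 inhibitors of apoptosis and 9 receptors, ligands, adaptors and regulators of the extrinsic pathway. MiaPaCa2 and PANC1, both established lines from human pancreatic ductal adenocarcinoma, were each kept untreated as controls or exposed for 24 hours to gemcitabine at 40 nM, to genistein at 50 µM, or to both drugs at these doses. Gemcitabine is a nucleoside analogue that interferes with DNA replication, and genistein is a phytoestrogen. Each of the 8 groups held 2 libraries, labelled I and II, which gave 16 libraries of RNA-Seq with between 12943482 and 31991860 reads counted on genes. The question addressed was which parts of the apoptotic machinery changed at the RNA level with each drug, with genistein added to gemcitabine, and between the lines.

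Apoptosis runs along an intrinsic and an extrinsic route. In the intrinsic route, BH3-only proteins sense damage and loss of support, bind the anti-apoptotic BCL2 proteins and release the effectors BAX and BAK1, which permeabilize the outer mitochondrial membrane. Cytochrome c then assembles with APAF1 and caspase 9 into the apoptosome, while SMAC (encoded by DIABLO) relieves caspases from the inhibitors of apoptosis. In the extrinsic route, ligands such as TRAIL (encoded by TNFSF10) engage death receptors, which recruit FADD or TRADD and the initiator caspases 8 and 10, with CFLAR as a brake, and BID carries the signal over to mitochondria. Most of these proteins are governed after transcription by binding, cleavage and degradation, and RNA levels do not measure protein activity.

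The carcinoma markers KRT8, KRT18, KRT19 and VIM were abundant in all 16 libraries, with at least 740 counts, and 13 of 15 markers of leukocytes, endothelium, acinar cells, islets and fibroblasts stayed at or below 6 counts in every library. The exceptions were CD14 and CDH5, both higher in MiaPaCa2. The summed level of these 15 markers lay between 11.4 and 14.2 TMM-normalized CPM (read counts scaled to library size) in MiaPaCa2 controls and between 4.72 and 4.77 CPM with genistein, and its part in the results was not tested. Replicates differed by more than sampling noise in every group. The chi-square per degree of freedom between replicates was 32.03 for the PANC1 controls and 19.7 for PANC1 with both drugs, against 2.70 to 10.3 in the other 6 groups. The difference between libraries I and II was correlated with the GC content of the genes, which are not independent replicates. Spearman's correlation across genes was 0.747 for the PANC1 controls, 0.585 for PANC1 with gemcitabine, 0.255 with genistein and -0.738 with both drugs, and it ran from -0.624 (both drugs) to 0.486 (genistein) in the MiaPaCa2 groups. Since RNA was taken from whole cultures, a change in every cell and a change in the share of cells carrying the RNA cannot be told apart.

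A gene was called changed when its adjusted p in limma-voom was at most 0.05, its absolute log2 fold change at least 0.4 and its mean FPKM above 1 in the treated group. Levels of a gene are given as CPM in libraries I and II, and changes as log2 fold changes ± standard error (SE). In MiaPaCa2, 36 of the 37 genes passed the filter on low counts (BCL2A1 did not), and in PANC1 35 passed (CASP1 and TNFSF10 did not).

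The most calls among the 6 drug comparisons came with gemcitabine in MiaPaCa2, where BIK, BCL2L11, BMF, PMAIP1, CASP2, CASP9, CASP10, DIABLO and TRADD rose and TNFRSF1A, TNFSF10 and CYCS fell. There, 12 of 36 genes tested were called, 9 higher and 3 lower, where 29.6% of all genes tested were called. The median log2 fold change of the 36 genes was 0.22, against -0.01 over all genes. After correction for GC content BMF, CYCS and TRADD were no longer called, and BCL2, BAX, CASP1, CASP4 and CASP6 were. That correction turned the change of BAK1, BOK, BAD and FADD negative and that of CASP8, XIAP and BIRC2 positive. How far the median depended on GC content was not tested. In PANC1, 3 of 35 genes tested were called with gemcitabine, 2 higher and 1 lower, beside 7.52% of all genes, and the medians were -0.00 for the apoptosis genes and 0.03 for all genes. The PANC1 count was 1 without control I, 7 without control II and 0 without either gemcitabine library. In both lines the share of these genes called was near that of all genes tested.

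With genistein alone, 3 of 36 genes rose and 2 fell in MiaPaCa2, among them BCL2L11 and FAS, where 8.31% of all genes were called. In PANC1, limma-voom called 0 of 35 genes with genistein, where 0.0591% of all genes were called, and again 0 without either control. At an unadjusted p under 0.05 there were 8, while edgeR called 0 and DESeq2 called 2, among them BMF (-0.74, adjusted p = 0.0173). When both drugs were compared with gemcitabine alone, 3 of 36 genes were called in MiaPaCa2, all 3 higher, beside 5.88% of all genes. All 5 genistein calls were lost without MiaPaCa2 control I, and all but FAS without control II, and the 3 calls for both drugs were lost without either gemcitabine library. In PANC1 the same comparison gave 0 of 35 genes with limma-voom, edgeR and DESeq2 alike, beside 0.0177% of all genes, and 7 genes at an unadjusted p under 0.05. The comparisons of each line with its controls share those control libraries, and the comparison of both drugs with gemcitabine shares the gemcitabine libraries with the comparison of gemcitabine with control.

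**Figure D1:**
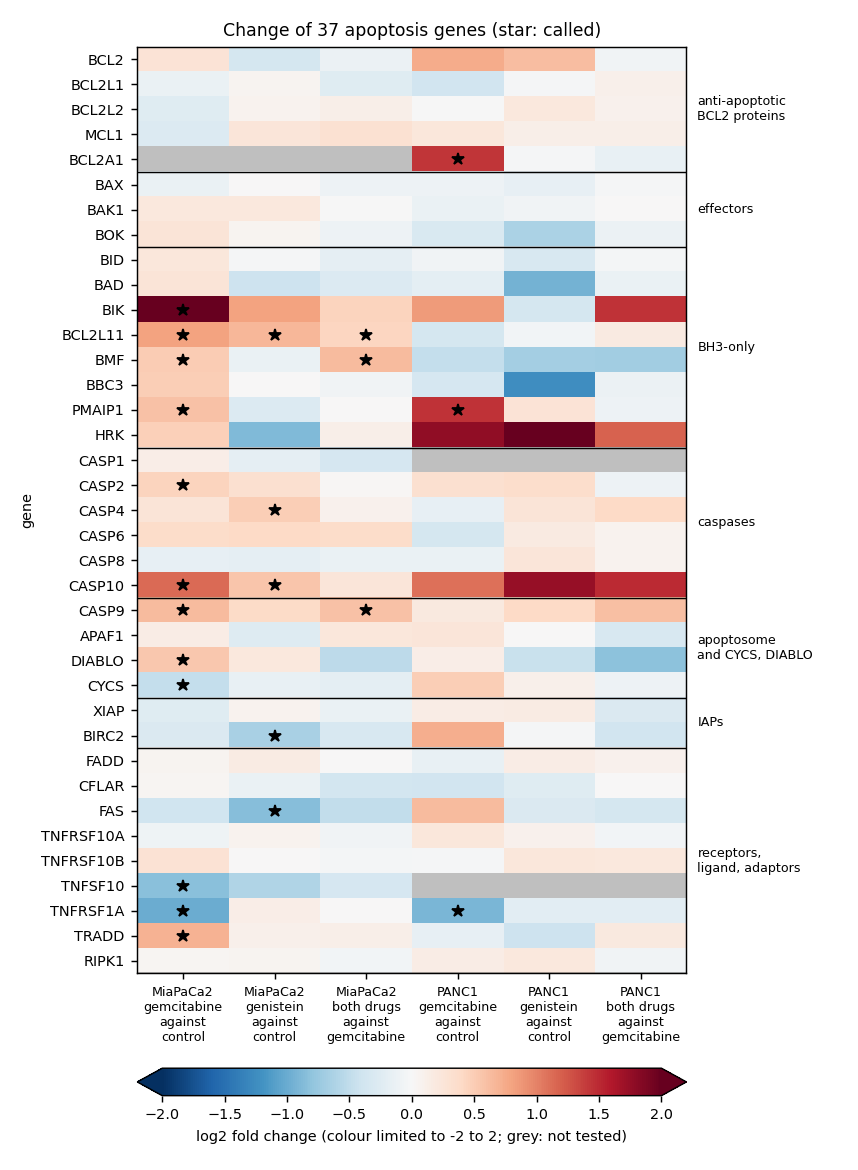
Log2 fold changes of the 37 genes (rows, grouped by role) in the 6 drug comparisons (columns), with colour limited to the range from -2 to 2, stars for called changes and grey for genes not tested. MiaPaCa2 with gemcitabine carries 12 stars, and the 3 PANC1 columns carry 3 in all, at BCL2A1, PMAIP1 and TNFRSF1A with gemcitabine.

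In untreated cells the lines differed in most of these genes. Of 37 genes tested, 26 differed between untreated PANC1 and untreated MiaPaCa2, 10 higher and 16 lower in PANC1, where 52.3% of all genes were called with the FPKM threshold met in either line. The count lay between 21 and 27 with any of the 4 control libraries left out. The median absolute log2 difference was 0.94 for the 37 genes and 0.72 for all genes. Over all 17863 genes tested, 4991 were called higher and 4343 lower in PANC1. Of the caspases, 4 of 6 were lower and 1 was higher in PANC1. Of the receptors, ligands and adaptors 6 of 9 were lower and 1 was higher. Several of the lower genes are neighbours in the genome, so these counts are not of independent loci. CASP8, CASP10 and CFLAR lie close together on chromosome 2, and CASP1 and CASP4 on chromosome 11. TNFRSF10A and TNFRSF10B lie close together on chromosome 8. The part of shared position was not tested. Of the BH3-only genes, 3 of 8 were higher and 3 were lower.

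**Figure D2:**
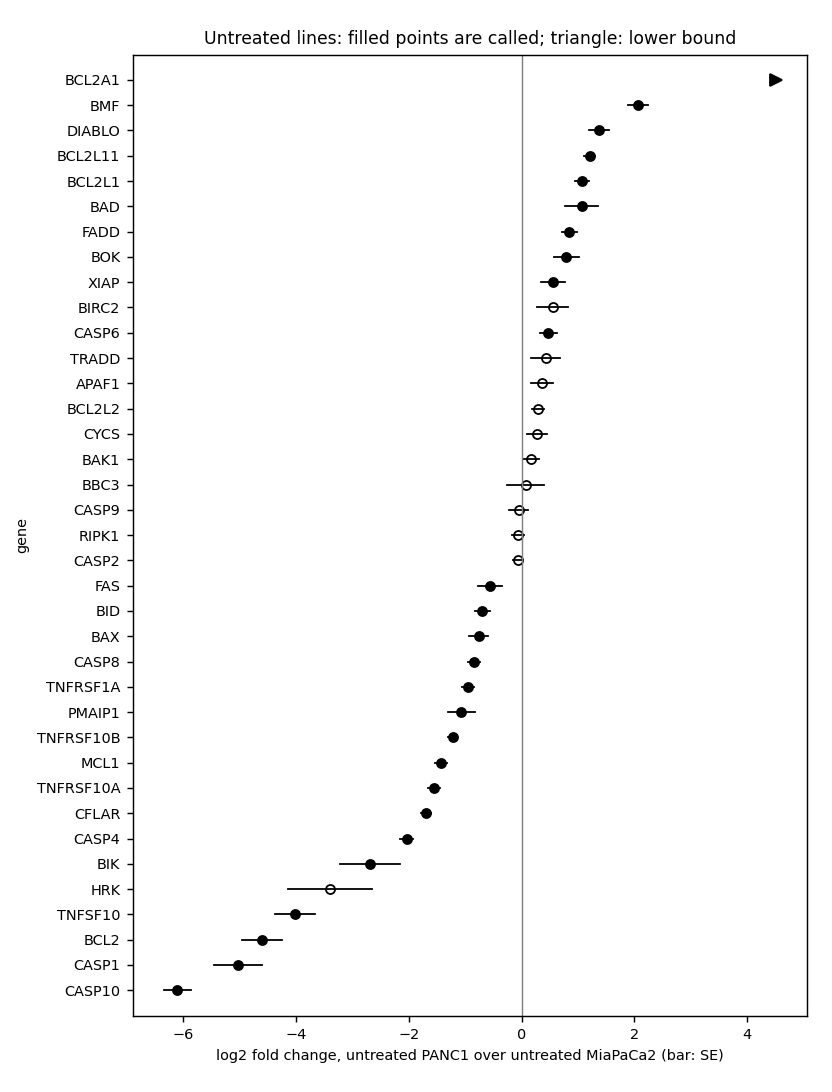
Log2 fold change (horizontal axis) of each of the 37 genes (vertical axis) in untreated PANC1 over untreated MiaPaCa2, as points with bars for the SE, filled where called. The triangle for BCL2A1 marks a lower bound of 23-fold, since MiaPaCa2 had 0 counts. CASP10, CASP1, BCL2 and TNFSF10 lie farthest below 0.

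Among the anti-apoptotic genes, the untreated lines kept different sets. BCL2, the founding member of the family, had 8.09 and 8.89 CPM in MiaPaCa2 controls and 0.201 and 0.469 CPM in PANC1 controls, the latter from 4 and 15 counts, and the difference was -4.61 ± 0.36 (adjusted p = 1.25e-07). MCL1, a short-lived protein on which many carcinoma cells depend, had 483 and 449 CPM in MiaPaCa2 and 159 and 187 CPM in PANC1, a difference of -1.43 ± 0.10 (adjusted p = 5.72e-08). BCL2L1, which encodes BCL-XL, went the other way, with 118 and 122 CPM in MiaPaCa2 and 286 and 225 CPM in PANC1, a difference of 1.07 ± 0.13 (adjusted p = 5.83e-06). None of these values overlapped between the lines. The exons of BCL2L1 overlap those of an antisense gene over 41.3% of their length, and the strand setting of the counting is not given in the sources used here. BCL2L2, which encodes BCL-W, differed by 0.30 ± 0.10 and did not reach the fold threshold.

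BCL2A1, an anti-apoptotic gene known as a target of NF-κB, was counted in PANC1 alone. It had 0 counts in each of the 8 MiaPaCa2 libraries, where the deposited FPKM lay between 0.146 and 0.474, and 90 and 170 counts in the PANC1 controls, at least 23-fold higher against a floor of 3 counts per library. In PANC1 it had 4.51 and 5.32 CPM in controls, 12.9 and 12.9 CPM with gemcitabine, 4.30 and 5.19 CPM with genistein and 15.7 and 9.05 CPM with both drugs. The libraries with gemcitabine, alone or combined, all lay above those without it. Gemcitabine raised BCL2A1 by 1.43 ± 0.27 on the log2 scale, 2.69-fold (adjusted p = 0.0207), and the adjusted p was 0.057 with the replicate number as a block, 0.062 without PANC1 control I, and 0.13 and 0.16 without gemcitabine library I or II. With limma-trend on the deposited FPKM the change was 1.22 (adjusted p = 0.070). BCL2A1 was the only anti-apoptotic gene that limma-voom called in any of the 6 drug comparisons. The others ranged in MiaPaCa2 with gemcitabine from -0.28 ± 0.09 for MCL1 (adjusted p = 0.0251) to 0.28 ± 0.16 for BCL2, which was called after GC correction (0.44, adjusted p = 0.016).

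The promoter of BCL2A1 is shown beside those of PMAIP1, TNFRSF1A and BCL2L11 because gemcitabine raised BCL2A1 and PMAIP1 in PANC1, moved PMAIP1 and TNFRSF1A in the same direction in both lines, and gave BCL2L11 a different response in each line. Of the 37 genes, 29 have a window in the RefSeq promoter table used (GRCh38.p14). Each sequence gives the 250 bases before the annotated start, 5′ to 3′ on the strand of the gene, and capitals mark matches on either strand to any of 6 motifs. These were the TATA box (TATAAA), the GC box (GGGCGG), the core of the cyclic AMP response element, called the CRE core below (TGACG), and the motifs of AP-1 (TGANTCA), of NF-κB (GGANTTTCC) and of E2F (TTTNGCGC). No match of 1 motif lay within another.
PMAIP1 (chr18:59899746-59899995, plus strand): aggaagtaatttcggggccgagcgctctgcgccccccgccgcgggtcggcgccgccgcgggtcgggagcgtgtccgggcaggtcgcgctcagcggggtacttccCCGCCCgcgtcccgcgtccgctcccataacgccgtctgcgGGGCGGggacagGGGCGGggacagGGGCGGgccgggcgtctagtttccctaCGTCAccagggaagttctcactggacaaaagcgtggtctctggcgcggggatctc
TNFRSF1A (chr12:6342077-6342326, minus strand): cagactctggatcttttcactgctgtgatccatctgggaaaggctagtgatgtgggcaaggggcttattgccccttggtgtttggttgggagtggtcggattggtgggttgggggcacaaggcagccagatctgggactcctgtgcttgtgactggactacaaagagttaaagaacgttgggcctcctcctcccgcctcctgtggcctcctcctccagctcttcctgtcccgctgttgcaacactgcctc
BCL2L11 (chr2:111120664-111120913, plus strand): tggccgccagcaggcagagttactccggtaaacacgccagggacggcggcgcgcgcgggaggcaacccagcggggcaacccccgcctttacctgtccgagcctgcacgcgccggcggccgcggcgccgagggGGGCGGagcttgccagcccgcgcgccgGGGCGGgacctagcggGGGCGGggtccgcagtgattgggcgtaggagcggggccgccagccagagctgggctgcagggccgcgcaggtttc
BCL2A1 (chr15:79971197-79971446, minus strand): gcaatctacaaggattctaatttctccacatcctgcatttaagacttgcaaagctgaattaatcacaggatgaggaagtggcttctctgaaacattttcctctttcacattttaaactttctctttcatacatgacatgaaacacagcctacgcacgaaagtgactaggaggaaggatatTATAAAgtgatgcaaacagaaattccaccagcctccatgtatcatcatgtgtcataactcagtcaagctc
BCL2A1 has 1 TATAAA match, at positions -70 to -65 from the annotated start, and a GC content of 38.8%. That motif is held by 10.7% of the 35116 promoters of this length. Whether this match works as a TATA box was not tested. PMAIP1 has 4 GC boxes and 1 CRE core, motifs held by 42.6% and 21.2% of the promoters, and BCL2L11 has 3 GC boxes. TNFRSF1A has none of the 6 motifs in this window. The AP-1, NF-κB and E2F motifs, held by 6.57%, 1.45% and 1.51% of the promoters, have no match in these 4 windows, which says only that these letters are not there.

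The effectors of mitochondrial permeabilization were not called in any drug comparison. BAX, the best known of them, had 135 and 153 CPM in MiaPaCa2 controls and 139 and 132 CPM with gemcitabine, and its log2 change was -0.14 ± 0.11 (adjusted p = 0.33). After correction for GC content the change was -0.45 (adjusted p = 0.00014), which met the threshold. BAK1 and BOK had log2 changes of 0.22 ± 0.12 and 0.26 ± 0.14 in MiaPaCa2 with gemcitabine and of -0.14 ± 0.15 and -0.30 ± 0.21 in PANC1, none of them called. GC correction turned the MiaPaCa2 changes to -0.03 for BAK1 (adjusted p = 0.79) and -0.21 for BOK (adjusted p = 0.047), so the direction of both depended on the correction. Untreated PANC1 had less BAX than MiaPaCa2 (-0.76 ± 0.16, adjusted p = 0.00106) and more BOK (0.79 ± 0.22, adjusted p = 0.00592), but the BOK difference was 0.08 (adjusted p = 0.42) after GC correction.

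The BH3-only genes held the largest change. BIK, a BH3-only protein of the endoplasmic reticulum (chr22:43506756-43525718, GRCh37), had 1.09 and 1.38 CPM in MiaPaCa2 controls, 7.62 and 7.30 CPM with gemcitabine, 1.64 and 2.60 CPM with genistein and 8.87 and 11.7 CPM with both drugs. Each control value rested on 18 counts. All libraries with gemcitabine lay above all without it, and BIK rose 5.77-fold with gemcitabine (log2 2.53 ± 0.31, adjusted p = 7.17e-05). With genistein the log2 change was 0.80 ± 0.35 (adjusted p = 0.16), and with genistein added to gemcitabine it was 0.45 ± 0.19 (adjusted p = 0.17). In PANC1, BIK had at most 19 counts in any library, with 4 and 5 counts in the controls and 12 and 19 with both drugs, and no change was called there. The gemcitabine response of the lines differed by -1.76 ± 0.69 (adjusted p = 0.10), which was not called.

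BCL2L11, which encodes BIM, the BH3-only protein that binds every anti-apoptotic family member, was called in all 3 drug comparisons of MiaPaCa2. It had 22.4 and 22.4 CPM in controls, 39.3 and 41.8 CPM with gemcitabine, 35.3 and 35.9 CPM with genistein and 56.9 and 52.3 CPM with both drugs. The groups did not overlap, and the level was lowest in controls and highest with both drugs. The log2 change was 0.80 ± 0.11 with gemcitabine (adjusted p = 0.000198), 0.66 ± 0.11 with genistein (adjusted p = 0.00494) and 0.42 ± 0.10 with both drugs over gemcitabine (adjusted p = 0.0265). The last of these fell below the fold threshold after GC correction (0.37, adjusted p = 0.0088) and missed the p threshold with the replicate block (adjusted p = 0.064).

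In PANC1, BCL2L11 started from a higher level, and no change was called. It had 53.2 and 50.9 CPM in controls, 37.7 and 41.0 CPM with gemcitabine, 47.4 and 50.0 CPM with genistein and 45.9 and 44.8 CPM with both drugs. The gemcitabine change was -0.36 ± 0.11 (adjusted p = 0.0857), and the difference in response between the lines was -1.25 ± 0.14 (adjusted p = 0.000199), with an adjusted p of 0.0024 under the replicate block and of 5.3e-06 when corrected for GC.

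BMF, which links the cytoskeleton to mitochondria, had 7.90 and 7.43 CPM in MiaPaCa2 controls, 11.7 and 11.0 CPM with gemcitabine, 8.14 and 6.42 CPM with genistein and 18.2 and 17.3 CPM with both drugs. The levels with gemcitabine lay above those without it, and those with both drugs above gemcitabine alone. BMF rose by 0.51 ± 0.16 with gemcitabine (adjusted p = 0.0240) and by a further 0.63 ± 0.14 with both drugs over gemcitabine (adjusted p = 0.0187). Correction for GC content ended the first of these calls (0.35, adjusted p = 0.065), as did leaving out any of the 4 libraries compared (adjusted p from 0.063 to 0.13). In CPM all treated PANC1 libraries lay below the controls, which had 37.8 and 28.2 CPM, with 23.8 and 21.0 CPM with gemcitabine, 20.7 and 18.4 CPM with genistein and 12.96 and 15.1 CPM with both drugs. None of these PANC1 changes was called, while after GC correction BMF was called with genistein (-0.68, adjusted p = 0.0064) and with both drugs over gemcitabine (-0.79, adjusted p = 0.0058). The gemcitabine response differed between the lines by -1.09 ± 0.25 (adjusted p = 0.0131). The deposited FPKM of BMF went the other way with gemcitabine in PANC1, with 7.16 and 6.26 in controls and 7.35 and 7.33 with gemcitabine, and on that scale the MiaPaCa2 gemcitabine change was 0.20 (adjusted p = 0.52), so the opposite signs of the lines hold on counts alone.

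PMAIP1, which encodes NOXA, a BH3-only protein that binds MCL1 and the product of BCL2A1 and is a known target of p53 and of stress signalling, was called with gemcitabine in both lines. In MiaPaCa2 it had 10.2 and 10.9 CPM in controls, 16.1 and 16.8 CPM with gemcitabine, 9.78 and 8.08 CPM with genistein and 16.7 and 16.6 CPM with both drugs. In PANC1 it had 4.06 and 5.88 CPM in controls, 12.1 and 14.3 CPM with gemcitabine, 4.61 and 7.37 CPM with genistein and 15.04 and 10.5 CPM with both drugs. In both lines every library with gemcitabine lay above every library without it. The log2 change was 0.59 ± 0.14 in MiaPaCa2 (adjusted p = 0.00559) and 1.45 ± 0.29 in PANC1 (adjusted p = 0.0249), and the difference between the lines, 0.76 ± 0.31, was not called (adjusted p = 0.11). In PANC1 the adjusted p was 0.061 with the replicate block, 0.070 without control I, and 0.12 and 0.20 without gemcitabine library I or II. In MiaPaCa2 it was 0.071 without control I.

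The other BH3-only genes did not pass in any drug comparison by limma-voom on TMM-normalized counts. BBC3, which encodes PUMA, had 4.62 and 5.74 CPM in MiaPaCa2 controls and 6.83 and 8.11 CPM with gemcitabine, a log2 change of 0.49 ± 0.22 (adjusted p = 0.092), which was 0.06 (adjusted p = 0.81) after GC correction and 0.59 (adjusted p = 0.041) by library size alone, past the thresholds. BID, which caspase 8 cleaves, and BAD, which growth factor signalling keeps phosphorylated, had log2 changes of 0.22 ± 0.10 and 0.27 ± 0.17 in MiaPaCa2 with gemcitabine, and GC correction turned that of BAD to -0.17. With genistein BAD had a log2 change of -0.42 ± 0.19 in MiaPaCa2 (adjusted p = 0.16), which was called after GC correction (-0.42, adjusted p = 0.0091). In PANC1 with genistein BAD and BBC3 had log2 changes of -0.94 ± 0.31 (adjusted p = 0.18) and -1.24 ± 0.45 (adjusted p = 0.20). These were -0.34 and -0.67 after GC correction and not called. BAD exons overlap a gene on the other strand over 23.7% of their length. HRK had at most 31 counts in any library, and in PANC1 it had 1 and 3 counts in controls, 8 and 4 with gemcitabine and 3 and 6 with genistein. In untreated cells BIK and PMAIP1 were lower in PANC1 (-2.69 ± 0.53 and -1.07 ± 0.24), and BMF and BAD were higher (2.06 ± 0.18 and 1.07 ± 0.29), as was BCL2L11 (1.21 ± 0.10).

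**Figure D3:**
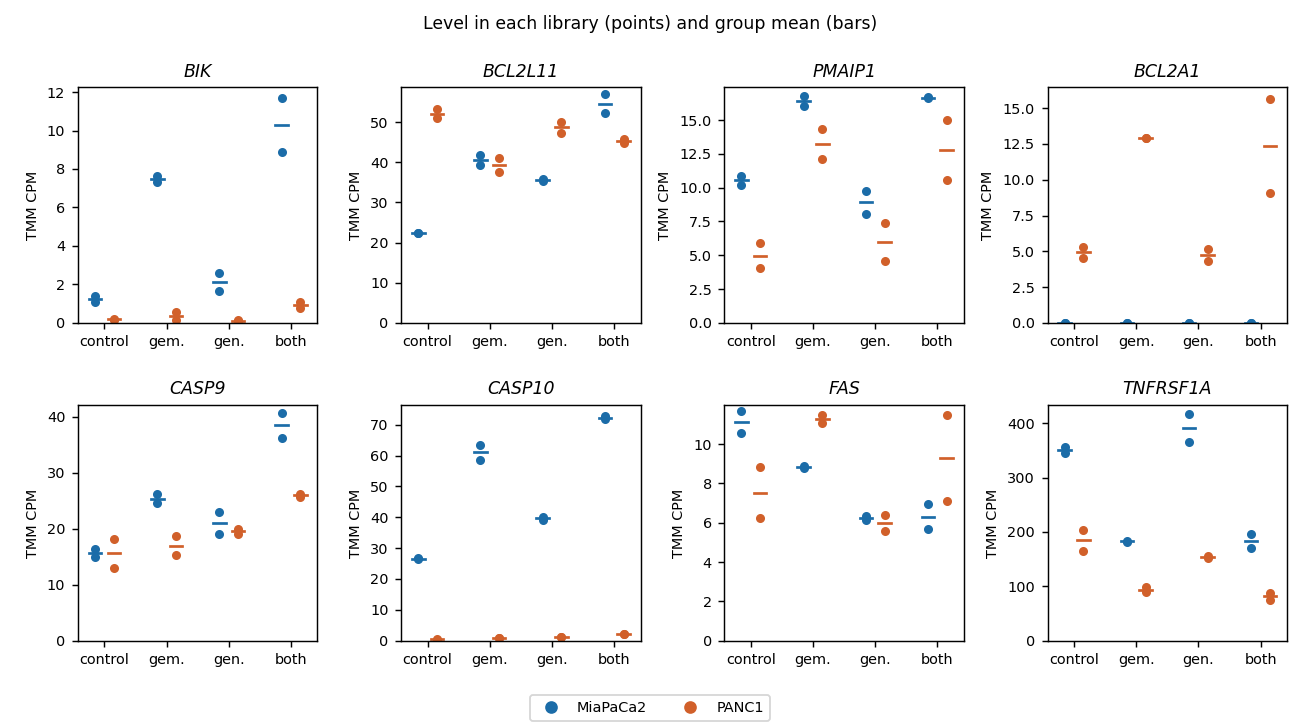
TMM-normalized CPM (vertical axes, from 0) of 8 genes in each library, by treatment (horizontal axes, gem. for gemcitabine and gen. for genistein) and line (blue MiaPaCa2, orange PANC1), with bars for group means. BIK, BCL2L11 and CASP10 step up with gemcitabine in MiaPaCa2, TNFRSF1A steps down in both lines, and BCL2A1 is at 0 in MiaPaCa2.

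CASP10, an initiator caspase of the death receptors, had the largest called change among the caspases. In MiaPaCa2 it had 26.8 and 26.4 CPM in controls, 58.7 and 63.3 CPM with gemcitabine, 40.2 and 39.1 CPM with genistein and 71.8 and 72.7 CPM with both drugs. The groups did not overlap, and replicates lay close together. The log2 change was 1.14 ± 0.10 with gemcitabine (adjusted p = 1.02e-05) and 0.56 ± 0.11 with genistein (adjusted p = 0.00761), while both drugs over gemcitabine gave 0.24 ± 0.09 (adjusted p = 0.13). On the deposited FPKM scale the genistein change was 0.02 (adjusted p = 0.98), so the genistein call depends on the counts.

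PANC1 had very little CASP10, with 9 and 10 counts in controls, 15 and 16 with gemcitabine, 16 and 16 with genistein and 36 and 40 with both drugs. As CPM these were 0.451 and 0.313, 0.810 and 0.757, 1.25 and 1.20, and 2.28 and 2.29. The groups did not overlap in CPM, but the log2 changes of 1.11 ± 0.32 with gemcitabine, 1.75 ± 0.32 with genistein and 1.497 ± 0.26 with both drugs over gemcitabine had adjusted p-values of 0.073, 0.11 and 0.12. No call was possible whatever the p, since mean FPKM was 0.211 with gemcitabine, 0.490 with genistein and 0.845 with both drugs, below the threshold of 1. After GC correction the adjusted p with gemcitabine was 0.013. The untreated lines differed by -6.11 ± 0.24 (adjusted p = 2.15e-10). The gemcitabine response did not differ detectably between them, with a difference of -0.13 ± 0.31.

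CASP2, a caspase tied to DNA damage and mitosis, had 86.4 and 84.6 CPM in MiaPaCa2 controls, 123 and 118 CPM with gemcitabine, 111.05 and 106.1 CPM with genistein and 123 and 123 CPM with both drugs. It lay above the controls with every treatment and rose by 0.44 ± 0.08 with gemcitabine (adjusted p = 0.00149). With genistein the change of 0.33 ± 0.08 had an adjusted p of 0.0286 but missed the fold threshold. In PANC1 the gemcitabine change was 0.32 ± 0.09 (adjusted p = 0.074), with 85.5 and 78.8 CPM in controls and 97.9 and 100.7 CPM with gemcitabine.

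CASP4, an inflammatory caspase that binds lipopolysaccharide, was called with genistein in MiaPaCa2. It had 81.2 and 79.1 CPM in controls, 95.3 and 103.2 CPM with gemcitabine, 111.8 and 117 CPM with genistein and 104.6 and 107.4 CPM with both drugs, so every treated library lay above the controls. The genistein change was 0.50 ± 0.09 (adjusted p = 0.00548). With limma-trend on the deposited FPKM it was 0.23 (adjusted p = 0.46), so this call depends on the counts. The gemcitabine change of 0.25 ± 0.09 (adjusted p = 0.0407) missed the fold threshold but was 0.63 (adjusted p = 0.00010) after GC correction. CASP8, the main initiator of the extrinsic route, and CASP6, which acts downstream, were not called with any drug by limma-voom. In MiaPaCa2 with gemcitabine CASP8 had a log2 change of -0.16 ± 0.09, which turned to 0.18 after GC correction. CASP6 had one of 0.36 ± 0.15 (adjusted p = 0.078), and it was called after GC correction (0.42, adjusted p = 0.012) and with library size alone (0.47, adjusted p = 0.030). CASP1, the inflammasome caspase, had 7.60 and 7.12 CPM in MiaPaCa2 controls and no more than 11 counts in any PANC1 library. In untreated cells CASP1, CASP4 and CASP8 were lower in PANC1, by -5.03 ± 0.43, -2.04 ± 0.11 and -0.85 ± 0.10, and CASP6 was higher, by 0.48 ± 0.15.

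CASP9, the caspase of the apoptosome, rose in MiaPaCa2 with gemcitabine. It had 16.4 and 14.9 CPM in controls, 26.2 and 24.5 CPM with gemcitabine, 22.9 and 19.1 CPM with genistein and 36.3 and 40.7 CPM with both drugs. Its groups did not overlap. CASP9 rose by 0.64 ± 0.13 with gemcitabine (adjusted p = 0.00261) and by 0.59 ± 0.12 with both drugs over gemcitabine (adjusted p = 0.0110). With limma-trend on the deposited FPKM these changes were 0.44 (adjusted p = 0.078) and 0.60 (adjusted p = 0.16), neither of them called. The genistein change alone was 0.39 ± 0.14 (adjusted p = 0.086). PANC1 held 18.1 and 13.1 CPM in controls, 18.7 and 15.2 CPM with gemcitabine, 20.0 and 19.1 CPM with genistein and 26.2 and 25.7 CPM with both drugs. The libraries with both drugs lay above all others, and the change over gemcitabine was 0.60 ± 0.17 (adjusted p = 0.22), called only after GC correction (0.50, adjusted p = 0.034).

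CYCS, which encodes cytochrome c, fell in MiaPaCa2 with gemcitabine, from 107.4 and 110 CPM in controls to 77.6 and 84.7 CPM (-0.48 ± 0.11, adjusted p = 0.00615). It had 93.9 and 104.3 CPM with genistein and 80.0 and 64.1 CPM with both drugs, so the libraries with gemcitabine lay below the others. In PANC1 it had 109.1 and 155 CPM in controls and 168 and 190 CPM with gemcitabine, a change of 0.49 ± 0.22 (adjusted p = 0.21), and the responses differed by 0.87 ± 0.25 (adjusted p = 0.0377). After GC correction the fall in MiaPaCa2 was -0.28 and missed the fold threshold, and without gemcitabine library I the adjusted p was 0.077. CYCS has many processed copies in the genome, and because the authors removed reads with several alignments its counts are uncertain.

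DIABLO had 3.28 and 2.99 CPM in MiaPaCa2 controls, 4.78 and 4.78 CPM with gemcitabine, 3.86 and 3.54 CPM with genistein and 3.48 and 3.16 CPM with both drugs. It rose by 0.54 ± 0.20 with gemcitabine (adjusted p = 0.0486), a call lost with the replicate block (adjusted p = 0.067), with DESeq2 (adjusted p = 0.20) and without any of the 4 libraries compared (adjusted p from 0.13 to 0.20). Its exons overlap other genes on the same strand over 31.5% of their length, so its counts are uncertain. In PANC1 it had 8.07 and 8.38 CPM in controls, 8.91 and 8.66 CPM with gemcitabine, 5.32 and 6.47 CPM with genistein and 5.69 and 4.47 CPM with both drugs. The last group lay below gemcitabine alone by -0.82 ± 0.19 (adjusted p = 0.14), called only after GC correction (-0.91, adjusted p = 0.013). The deposited FPKM of DIABLO in PANC1 ran in the other direction, with means of 79.1 in controls, 105.8 with genistein, 109.6 with gemcitabine and 113.2 with both drugs. APAF1, the scaffold of the apoptosome, was not called with any drug, and its gemcitabine change was 0.15 ± 0.13 in MiaPaCa2 and 0.25 ± 0.25 in PANC1.

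Of the inhibitors of apoptosis, BIRC2, the ubiquitin ligase cIAP1, fell with genistein in MiaPaCa2. It had 50.3 and 51.6 CPM in controls, 43.9 and 42.9 CPM with gemcitabine, 27.4 and 37.7 CPM with genistein and 40.7 and 30.4 CPM with both drugs. Every treated library lay below the controls, and the genistein change was -0.65 ± 0.16 (adjusted p = 0.0231), or -0.43 (adjusted p = 0.16) without genistein library I. In PANC1 the controls themselves differed, with 54.9 and 97.2 CPM, against 112.6 and 127 CPM with gemcitabine, and the change of 0.72 ± 0.30 was not called (adjusted p = 0.18) until GC correction (0.54, adjusted p = 0.022). XIAP, which inhibits caspases directly, was not called with any drug, and its level in untreated PANC1 was higher by 0.55 ± 0.22 (adjusted p = 0.0378).

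TNFRSF1A, the receptor TNFR1, fell with gemcitabine in both lines. In MiaPaCa2 it had 344 and 357 CPM in controls, 184 and 182 CPM with gemcitabine, 416 and 366 CPM with genistein and 171 and 197 CPM with both drugs. In PANC1 it had 204 and 166 CPM in controls, 97.99 and 89.1 CPM with gemcitabine, 155 and 152 CPM with genistein and 75.4 and 87.8 CPM with both drugs. The libraries with gemcitabine lay below those without it in each line, with no overlap. TNFRSF1A fell by 0.99 ± 0.09 in MiaPaCa2 (adjusted p = 9.31e-06) and by 0.92 ± 0.11 in PANC1 (adjusted p = 0.00555), 1.99-fold and 1.89-fold lower. With genistein the changes were 0.14 ± 0.08 and -0.21 ± 0.11, neither of them called, and both drugs over gemcitabine gave 0.00 ± 0.09 and -0.22 ± 0.13. The MiaPaCa2 call held under every alternative, and the PANC1 call was lost only when either gemcitabine library was left out (adjusted p = 0.058 and 0.090).

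TRADD, the adaptor of TNFR1, moved opposite to its receptor in MiaPaCa2. It had 10.7 and 11.5 CPM in controls, 19.9 and 17.4 CPM with gemcitabine, 13.6 and 11.0 CPM with genistein and 16.5 and 24.4 CPM with both drugs, and all libraries with gemcitabine lay above the rest. It rose by 0.69 ± 0.19 (adjusted p = 0.0112), or by 0.28 (adjusted p = 0.050) after GC correction, below the fold threshold. Without control I or gemcitabine library I the adjusted p was 0.096 and 0.098. In PANC1 its gemcitabine change was -0.17 ± 0.25. RIPK1, the kinase downstream of TNFR1, had log2 changes from -0.07 to 0.21 in the 6 drug comparisons.

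FAS, the receptor of FAS ligand, fell with genistein in MiaPaCa2. It had 11.7 and 10.6 CPM in controls, 8.76 and 8.87 CPM with gemcitabine, 6.33 and 6.14 CPM with genistein and 6.96 and 5.67 CPM with both drugs, and every treated library lay below the controls. It fell by 0.85 ± 0.16 with genistein (adjusted p = 0.00803), whereas the gemcitabine change was -0.39 ± 0.15 (adjusted p = 0.061). In PANC1 FAS had 6.22 and 8.82 CPM in controls, 11.5 and 11.1 CPM with gemcitabine, 6.41 and 5.57 CPM with genistein and 11.5 and 7.10 CPM with both drugs, and its gemcitabine change was 0.63 ± 0.27 (adjusted p = 0.18). The difference in the gemcitabine response, 0.91 ± 0.30, just missed the threshold (adjusted p = 0.0546). FAS exons overlap genes on the other strand over 25.7% of their length.

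TNFSF10 had 5.84 and 6.43 CPM in MiaPaCa2 controls, 3.26 and 3.84 CPM with gemcitabine, 3.12 and 4.86 CPM with genistein and 3.27 and 2.44 CPM with both drugs. Every treated library lay below the controls, and the ligand fell by 0.84 ± 0.24 with gemcitabine (adjusted p = 0.0149). Leaving out any of the 4 libraries compared raised the adjusted p to between 0.051 and 0.12. PANC1 had 6 and 13 counts in controls, -4.02 ± 0.36 against MiaPaCa2. The TRAIL receptors TNFRSF10A and TNFRSF10B, also named DR4 and DR5, were both lower in untreated PANC1, by -1.55 ± 0.11 and -1.22 ± 0.08. Neither was called with a drug, and TNFRSF10B, with 161 and 159 CPM in MiaPaCa2 controls and 205 and 201 CPM with gemcitabine, had a log2 change of 0.29 ± 0.08 (adjusted p = 0.0112) and missed the fold threshold.

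CFLAR, the inhibitor of caspase 8 at the receptor, had 165 and 152 CPM in untreated MiaPaCa2 and 49.7 and 48.4 CPM in untreated PANC1, a difference of -1.70 ± 0.09 (adjusted p = 2.70e-09). PANC1 had 36.2 and 36.7 CPM with gemcitabine, 42.1 and 38.4 CPM with genistein and 34.4 and 39.6 CPM with both drugs, all below the controls but not called. In MiaPaCa2 both drugs over gemcitabine gave -0.37 ± 0.09 (adjusted p = 0.0235), under the fold threshold. FADD, the adaptor of FAS and of the TRAIL receptors, was higher in untreated PANC1 by 0.85 ± 0.13 (adjusted p = 8.77e-05) and was not called with any drug, and its exons overlap a gene on the other strand over 59.2% of their length.

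The response to gemcitabine itself was compared between the lines in a model of all 16 libraries. It differed in 7 of 37 genes tested, with 6 responses lower and 1 higher in PANC1, where 15.3% of all genes tested differed. BCL2L11, BMF, CASP4, CASP6, CFLAR and TNFRSF10B had the lower response in PANC1, and CYCS the higher. The count was 16 without PANC1 control II, 3 without PANC1 control I, 1 without either MiaPaCa2 control and 2 without any gemcitabine library, and it was 12 after GC correction. The response to genistein differed in 0 of 37 genes with limma-voom and edgeR and in 1 with DESeq2, where 0.0336% of all genes differed, and 9 genes had an unadjusted p under 0.05. After GC correction 1 gene was called, BCL2L11, with a difference of -0.82 (adjusted p = 0.0025).

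**Figure D4:**
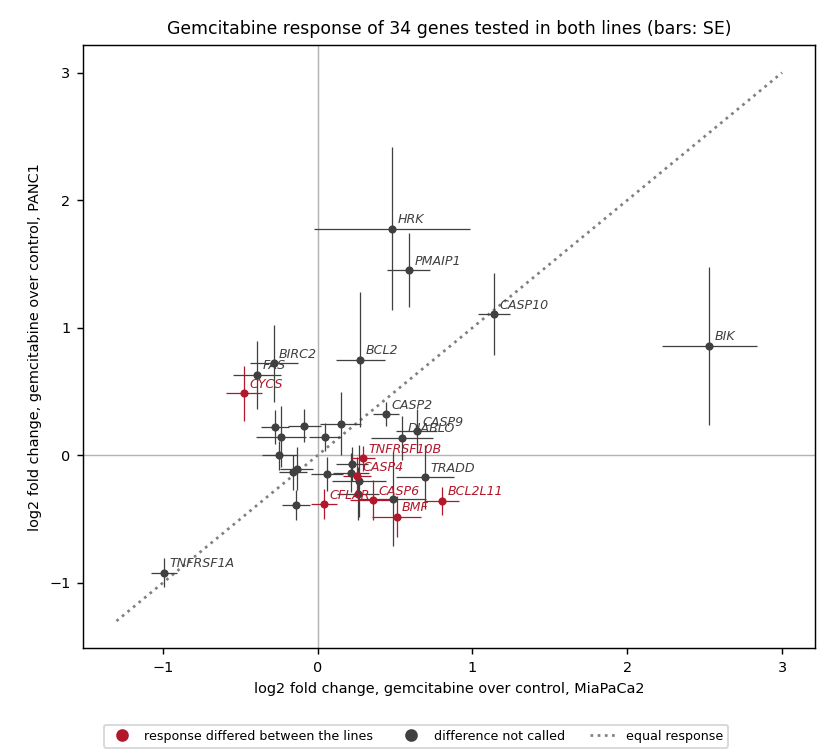
Log2 fold changes with gemcitabine over control in MiaPaCa2 (horizontal axis) and PANC1 (vertical axis) of the 34 genes tested in both lines, with bars for the SE, a dotted line of equal response, and red for genes whose response differed between the lines. TNFRSF1A and CASP10 lie near the line of equal response, and BCL2L11 and BMF lie on opposite sides of 0 in the 2 lines.

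Whether the 2 drugs together gave more or less than the sum of their separate log2 changes was tested as an interaction. It was called in 0 of 36 genes in MiaPaCa2, where 0.0249% of all genes were called, and in 0 of 35 genes in PANC1, where 0% were called. The counts with edgeR and DESeq2 were 0 in both lines, and 7 and 1 genes had an unadjusted p under 0.05. The lowest adjusted p among the MiaPaCa2 genes was that of BMF, 0.39, with an interaction of 0.76 ± 0.22. With 2 libraries per group these p-values measure only the spread between the libraries at hand.

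Levels of different genes were compared by FPKM, which the authors scaled to transcript length. In controls 35 of the 37 genes in MiaPaCa2 and 31 in PANC1 had a mean FPKM above 1. By FPKM TNFRSF1A was the highest in both lines, with 564 ± 1.99 FPKM in MiaPaCa2 and 262 ± 10.0 FPKM in PANC1 (SD, n = 2). BAX followed with 387 ± 39.3 and 206 ± 43.8 FPKM, and CYCS with 116.3 ± 1.51 and 157 ± 38.0 FPKM. The FPKM of a gene sums its isoforms and disagreed with counts per exon length for some genes. DIABLO ranked 10 of 37 by FPKM in MiaPaCa2 but 35 by CPM per kilobase of exon. By CPM per kilobase TNFRSF1A ranked 1 in MiaPaCa2, ahead of MCL1, and 2 in PANC1, behind BCL2L1, while BAX ranked 3 and 5 and CYCS 9 and 8. The Spearman correlation of both scales across the 37 genes was 0.802 in MiaPaCa2 and 0.833 in PANC1.

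The split into isoforms, as estimated by the authors, is a description with no test. BIK has a single listed isoform, BIK-201, with 480 coding bases. For MCL1, the coding isoform MCL1-202, with 1050 coding bases, held between 83.9% and 89.9% of the FPKM in the MiaPaCa2 libraries and between 78.6% and 96.3% in the PANC1 libraries. For BCL2L11, BCL2L11-204 with 594 coding bases held 72.2% in the median MiaPaCa2 library and 58.0% in the median PANC1 library. PMAIP1 was divided between PMAIP1-201, with 408 coding bases, at a median of 61.1% in MiaPaCa2, and PMAIP1-202, with 162 coding bases, at 36.2%. In BCL2L1 the isoform BCL2L1-201 held from 0.0148% to 73.6% in the MiaPaCa2 libraries. For TNFRSF1A, isoforms annotated as without a defined coding sequence or as targets of nonsense-mediated decay, TNFRSF1A-209, TNFRSF1A-213 and TNFRSF1A-203, held medians of 26.1%, 16% and 14.3% in MiaPaCa2, beside a further isoform without a name here at 29.7%.

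A further 50 genes of the apoptotic and neighbouring death pathways, none among the 37, were followed beside them. The list was chosen with earlier results of these data known. It holds DDIT3 and ITPR1, which the authors had named in the genistein response of these lines, so its counts are no independent reference. In MiaPaCa2 39 of the 50 were tested, and 12 were called with gemcitabine, 7 higher and 5 lower, beside 29.6% of all genes tested. The largest were TNFRSF10C, a decoy receptor of TRAIL (1.09 ± 0.30), ITPR1, a calcium channel of the endoplasmic reticulum (0.96 ± 0.14), and TRAF1, a signalling adaptor of TNF receptors (0.89 ± 0.12). TNFRSF10C rested on only 26 and 14 counts in the MiaPaCa2 controls. With genistein 7 were called, 5 higher and 2 lower, beside 8.31% of all genes, led by CASP8AP2, a partner of caspase 8 (-1.18 ± 0.25), DDIT3, the stress factor CHOP (0.89 ± 0.15), and the receptor TNFRSF12A (0.81 ± 0.12). With both drugs over gemcitabine 4 were called, all higher, beside 5.88% of all genes, led by DDIT3 (0.77 ± 0.14), ITPR1 (0.64 ± 0.12) and TNFRSF21, which encodes death receptor 6 (0.63 ± 0.13).

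In PANC1 43 of the 50 were tested. With gemcitabine 7.52% of all genes were called. Of these 43 DDIT3 rose by 2.30 ± 0.11 (adjusted p = 0.000357) and DFFB, a nuclease that fragments DNA in apoptosis, fell by 0.97 ± 0.22 (adjusted p = 0.0342). DDIT3 exons overlap other genes over 31.6% of their length on the other strand and 8.03% on the same strand, so its counts are uncertain. With genistein, where 0.0591% of all genes were called, DDIT3 was the only one of the 43 called, at 1.10 ± 0.13 (adjusted p = 0.0499), and that call was lost with the replicate block (adjusted p = 0.21). Beside 0.0177% of all genes, limma-voom called 0 and edgeR 0 with both drugs over gemcitabine, with 9 at an unadjusted p under 0.05. The gemcitabine response differed between the lines in 6 of 43, beside 15.3% of all genes. The largest differences were in DDIT3 (2.07 ± 0.17), TNFRSF10C (-1.89 ± 0.54) and CASP8AP2 (1.70 ± 0.49). In the PANC1 controls TNFRSF10C had only 18 and 18 counts. CASP8AP2 had 170 and 622 counts there, in libraries of 21889823 and 31991860 reads, so its controls disagreed. In untreated cells 28 of 43 differed, 15 higher and 13 lower in PANC1, beside 52.3% of all genes. BNIP3, GSDMD and PYCARD had the largest differences, with 0 to 1 counts each in the MiaPaCa2 controls. In the PANC1 controls BNIP3, a mitochondrial protein induced by hypoxia, had 500 and 832 counts. GSDMD, the pore former of pyroptosis, had 952 and 1007 counts, and PYCARD, an inflammasome adaptor, had 958 and 911 counts.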

How the data were processed

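The authors aligned RNA-Seq reads to GRCh37 and, per the labels' processing notes, used TopHat2 2.0.4, Picard 1.29, SAMtools, HTSeq 0.6.1 and Cufflinks 2.1.1. They deposited raw read counts per gene and FPKM values per gene and isoform. Which annotation release was used, and whether counting took account of strand, is not given in the sources used here. Exon lengths, GC contents, exon overlaps and isoform names were taken from a later GENCODE release on GRCh37 coordinates. They may differ from the annotation that the authors counted on. Counts of 12943482 to 31991860 reads per library were used for the tests and the deposited FPKM values for levels and isoform shares. The deposited counts were filtered with filterByExpr, normalized by TMM and tested with limma-voom (limma 3.58.1, edgeR 4.0.16, R 4.3.3), with 8 libraries per line for drug comparisons and interactions and 16 libraries for comparisons between lines. P-values were adjusted by Benjamini-Hochberg over all genes tested, 16064 in MiaPaCa2, 16909 in PANC1 and 17863 in both lines. Differences in response and interactions needed only an adjusted p of at most 0.05. The genes and lists were chosen with earlier results of these data known. Values in every library were given for genes called in a drug comparison, at most 4 per role by largest change, and for others where a result turned on them. Of a further pathway list, at most the 3 largest called changes per comparison were named. Alternatives were edgeR's quasi-likelihood test, DESeq2 1.42.0, DESeq2 size factors, library size alone, no filter on low counts, limma-trend on log2(FPKM + 1), a replicate block, a loess correction for GC content (span 0.3), adjusted p alone and each library left out. The limma-voom test of gemcitabine against control was also run on simulated counts. These were drawn without a GC trend between libraries, so they cannot show how the test behaves with the trend found here. Figures were drawn with matplotlib 3.10.9. The authors describe the replicates of each condition as biological. Labels tie replicates to no shared culture or day, and how far the spread between them is technical was not tested.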

Additional observations from a re-analysis of the deposited data

Results flagged for a closer look

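The gemcitabine response differed between PANC1 and MiaPaCa2 in 7 genes, by the limma-voom test of the difference of log2 changes over all 16 libraries. BCL2L11 differed by -1.25 (adjusted p = 0.000199), with a change of 0.80 in MiaPaCa2 and -0.36 in PANC1. BMF differed by -1.09 (adjusted p = 0.0131), from 0.51 and -0.48, but its mean FPKM was higher with gemcitabine in both lines, at 2.49 against 2.05 in MiaPaCa2 and 7.34 against 6.71 in PANC1. CASP6 differed by -0.81 (adjusted p = 0.0236), from 0.36 and -0.35, neither of them called. CFLAR differed by -0.52 (adjusted p = 0.0183), from 0.04 and -0.38, and CASP4 by -0.51 (adjusted p = 0.0494), from 0.25 and -0.16. TNFRSF10B differed by -0.41 (adjusted p = 0.0272), from 0.29 and -0.03, and CYCS by 0.87 (adjusted p = 0.0377), from -0.48 and 0.49. With the replicate block only BCL2L11 (adjusted p = 0.0024) and BMF (adjusted p = 0.021) still differed, and after GC correction TNFRSF10B did not (adjusted p = 0.083).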

How the results depend on the processing

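For the genes called in a drug comparison, 1087 values came from alternatives other than leaving out a library. Of these, 1025 kept their side of the threshold, 35 lost it, 27 gained it and 0 reversed. With a library left out, 372 of 424 kept it, 44 lost it, 8 gained it and 0 reversed. Values called in neither fit count as kept, so these shares do not measure how stable the calls were. Reversal was counted only for values called in the main fit or in the alternative. The uncalled change of BMF with gemcitabine in PANC1 went the other way on FPKM. BAK1, BOK, BAD, CASP8, FADD and XIAP, whose sign turned with GC correction in MiaPaCa2 with gemcitabine, are outside these values. BIRC2 is within these values. Its uncalled change in that comparison turned from -0.28 to 0.06 with GC correction and was not counted as reversed. The counts of genes called moved as follows, and the cause was not tested. With the replicate block the PANC1 gemcitabine count was 1 and the gemcitabine response count 2. On the FPKM scale the MiaPaCa2 counts were 1 with genistein and 0 with both drugs over gemcitabine, and the gemcitabine response count was 3, against 4 with library size alone. DESeq2 gave 2 with genistein in PANC1 and 1 for the genistein response. GC correction gave 3 with genistein in PANC1, 5 and 3 with both drugs over gemcitabine in MiaPaCa2 and PANC1, 12 for the gemcitabine response and 1 for the genistein response, and together with the replicate block 1, 5, 3, 11 and 1. With a library left out the counts ran from 7 to 9 (MiaPaCa2 gemcitabine), 0 to 7 (PANC1 gemcitabine), 0 to 5 (MiaPaCa2 genistein), 0 to 6 (MiaPaCa2 both drugs over gemcitabine, 6 without library I with both drugs), 1 to 16 (gemcitabine response), 0 to 1 (genistein response, 1 without PANC1 control II) and 21 to 27 (untreated lines).

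Over all genes, the PANC1 gemcitabine count was 1272, against 442 with the replicate block, 435 on the FPKM scale, 3001 after GC correction and 2738 with both. In MiaPaCa2 the FPKM scale gave 2730 in place of 4747 with gemcitabine and 178 in place of 1335 with genistein. The PANC1 genistein count of 10 became 754 with DESeq2, 1206 after GC correction and 0 with the block. Both drugs over gemcitabine gave 945 in MiaPaCa2, against 617 with the block, 18 on the FPKM scale and 1542 after GC correction, and 3 in PANC1, against 207 with DESeq2 and 1196 after GC correction. The gemcitabine response count of 2728 was 1347, 1516 and 4596 on the FPKM scale, with the block and after GC correction, and the genistein response count of 6 was 185 with DESeq2 and 367 after GC correction. The interaction was called in 4 genes in MiaPaCa2, against 46 with DESeq2, 88 after GC correction and 0 with the block, and in 0 in PANC1, against 4 with DESeq2 and 15 on the FPKM scale. Without TMM, library size alone set the median change of all genes at 0.14 in PANC1 and 0.09 in MiaPaCa2 with gemcitabine.

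The labels give no pairing beyond the number. Same-numbered deviations correlated at 0.256 (PANC1 gemcitabine and control), -0.298 (PANC1 both drugs and gemcitabine) and -0.505 (PANC1 both drugs and control), and between -0.262 and 0.131 in MiaPaCa2. After GC correction the same PANC1 correlations were 0.019, -0.054 and -0.177, and those in MiaPaCa2 lay between -0.125 and 0.029. Chosen after seeing the data, pairs in the 4 PANC1 libraries of both drugs and gemcitabine gave 0 of the apoptosis genes and 59 of all genes by number, and 3 and 1470 when crossed. With 2 libraries per group, drug changes in genes of few counts such as HRK, and BIK in PANC1, could not be resolved. For HRK in both lines and CASP10 in PANC1, mean FPKM below 1 barred a call with any drug whatever the p. CASP10 in PANC1 also had no limma-voom adjusted p of at most 0.05 with a drug in the main fit.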
